A study of Mus musculus with 30 samples.

Results

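The 10 genes followed here are targets of the RAS-ERK pathway: 3 phosphatases (Dusp4, Dusp5 and Dusp6), 3 Sprouty genes (Spry1, Spry2 and Spry4), 2 Spred genes (Spred1 and Spred2) and 2 ETS factors (Etv4 and Etv5). Their levels were read in 30 mouse lung tumours. They were chosen by symbol from a table of 23284 gene rows. All 10 of the 10 members were found, and all 10 passed the filter on low values (a mean normalized read count of at least 10) that left 14539 genes to test. The tumours were induced by K-RAS, a small GTPase, and their RNA was sequenced in bulk. The labels give 10 tumours from NAC-treated mice, 10 from mice that received vitamin E and 10 from untreated mice, with 5 animals in each group and 2 tumours from each animal. The columns of the table carry a letter (A, B or C), a digit from 1 to 5, read here as the animal, and a digit 0 or 1, read here as the tumour. No label states this reading, and the key from letter to treatment is not given in the sources used here. Tumours are therefore described by letter only, and no value below is tied to a treatment. The strain, age, driver allele, dose and duration are not given in the sources used here, so neither the cells in which K-RAS was switched on nor the stage of the tumours can be stated.

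RAS passes growth signals through the kinases RAF and MEK to ERK, and active ERK turns on genes whose products restrain the same pathway. DUSP phosphatases remove the activating phosphates from ERK, Dusp6 in the cytoplasm and Dusp4 and Dusp5 in the nucleus, while Sprouty and Spred proteins act further up, between the receptors and RAF. Etv4 and Etv5 are ETS transcription factors of the PEA3 group, and Etv5 is known for its role in alveolar type 2 cells of the lung. The repressor CIC holds several of these genes down and is released from them by ERK activity, which is why their messages are read as a measure of pathway output.

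The recovered read totals ran between 18322631 and 24408946 per tumour, and those of the 3 letters overlapped. Tumour A11 resembled the other tumours least, with a median correlation of 0.915 across genes, against 0.941 for the next lowest tumour. All 8 alveolar type 2 markers listed were detected in every tumour, with Sftpc, a surfactant gene, at medians of 1275700 in letter A, 1793100 in letter B and 1811100 in letter C. In bulk tumours, fewer cells of a type and less RNA per cell cannot be told apart. The labels do not say how tumours were picked from an animal, so the 5 animals of a letter were the replicates in every comparison of letters.

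Letter A tumours had the lowest median of 10 of 10 members, and for 8 of 10 members the mean difference was wider against letter C than against letter B. In A minus C, 8 of 10 members fell, by 0.41 to 0.80 on the log2 scale, and the members that did not pass the test were Spry1 and Etv5 (limma on the 5 animal means of each letter, Benjamini-Hochberg adjusted p under 0.05 over all genes tested). Across all genes tested, 21.9% were lower and 22.9% higher in that comparison. In A minus B, 1 of 10 members fell, Spred1, against 6.49% of all genes lower and 8.78% higher. In B minus C, 0 of 10 members passed the adjusted threshold, against 8.71% of all genes lower and 8.26% higher. There, edgeR on the recovered reads also called 0 members. An unadjusted limma p under 0.05 was held by 6 of 10 members in A minus B, 8 in A minus C and 5 in B minus C. Of all genes tested, 4801, 7650 and 4719 had one in the same order. The median log2 difference of the members was -0.36 in A minus B, -0.55 in A minus C and -0.22 in B minus C, beside medians of -0.00, 0.00 and 0.01 over all genes tested. Without tumour A11, 7 of 10 members fell in A minus C (Etv4 did not pass), 1 in A minus B and 0 in B minus C, beside 43.7%, 12.7% and 17.2% of all genes called in either direction in that setting. These 3 comparisons share animals and are not independent of each other.

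**Figure D1:**
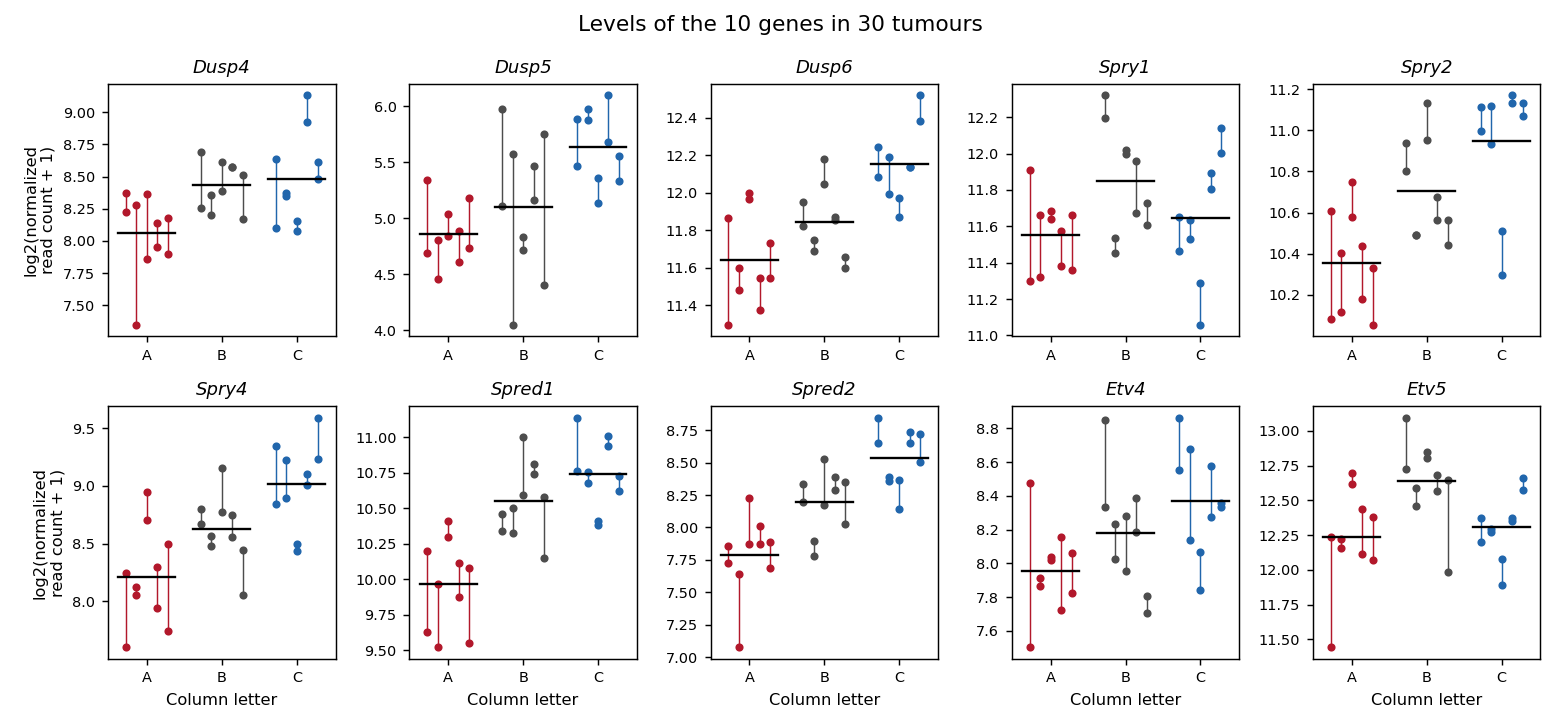
Log2(normalized read count + 1) of each of the 10 genes (y axis) in tumours of column letters A, B and C (x axis). Each point is 1 tumour, a thin line joins the 2 tumours of an animal (animals 1 to 5 from left to right), and the black bar is the mean of the 10 tumours. The mean of letter A is the lowest for all 10 genes, and Spry1 and Etv5 are highest in letter B.

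Of the phosphatases, Dusp6, the cytoplasmic ERK phosphatase, had 2515, 3046 and 4093 normalized reads as lowest, median and highest of the letter A tumours, 3100, 3657 and 4631 in letter B, and 3749, 4509 and 5875 in letter C. The letter A and letter C tumours overlapped only through the 2 tumours of animal A3 and the lowest C tumours, and the log2 difference A minus C was -0.51 (SE 0.11, limma adjusted p = 0.00223), a 1.43-fold higher mean in letter C. The differences A minus B (-0.20, limma adjusted p = 0.225) and B minus C (-0.31, limma adjusted p = 0.0674) did not pass. Dusp6 in B minus C did pass with the animal as a random block over the 30 tumours (limma adjusted p = 0.0245) and without animal A3, B3 or C3 (limma adjusted p = 0.0389, 0.0325 and 0.0444). Dusp5, a nuclear phosphatase and the least covered member, had 20.9, 27.3 and 39.6 reads in letter A, 15.6, 34.2 and 62.1 in letter B and 34.2, 48.2 and 67.6 in letter C. With so few reads, counting error is larger in proportion for Dusp5 than for the other members. Its A minus C difference of -0.78 (SE 0.18, limma adjusted p = 0.00290) separated the animal means of these letters without overlap, while that of -0.53 in B minus C missed the threshold (limma adjusted p = 0.0511), and passed it without animal B1, C3 or C5 (limma adjusted p = 0.0260, 0.0330 and 0.0454). Dusp4, the other nuclear phosphatase, had 162, 285 and 331 reads in letter A, 287, 349 and 412 in letter B and 269, 343 and 560 in letter C. Letters B and C lay close together for Dusp4 (-0.05, limma adjusted p = 0.831), and letter A fell by 0.42 against letter C (SE 0.14, limma adjusted p = 0.0210). That Dusp4 call was lost without animal A2 (-0.36, limma adjusted p = 0.0586), whose tumour A20 held the lowest value.

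The Sprouty genes, whose products inhibit signalling from receptor tyrosine kinases, did not move as 1 group. Spry4 had 193, 290 and 494 reads as lowest, median and highest in letter A, 265, 392 and 569 in letter B and 346, 532 and 769 in letter C. Its A minus C difference was the widest among the 10 members at -0.80 (SE 0.18, limma adjusted p = 0.00300), and the range of each letter still overlapped the next. Spry2 had 1064, 1321 and 1721 reads in letter A, 1390, 1576 and 2243 in letter B and 1256, 2181 and 2305 in letter C, with an A minus C difference of -0.59 (SE 0.14, limma adjusted p = 0.00401). Both C3 tumours lay well below the other 8 tumours of letter C for Spry2. Spry1 was different in order: it had 2522, 3123 and 3845 reads in letter A, 2799, 3686 and 5116 in letter B and 2134, 3200 and 4519 in letter C. No Spry1 difference passed the test, with -0.30 in A minus B, -0.10 in A minus C and 0.20 in B minus C (limma adjusted p = 0.181, 0.625 and 0.378), and the 95% interval of A minus C ran between -0.42 and 0.22.

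The Spred genes, which encode membrane proteins that hold back RAS activation (SPRED1 brings the RAS inhibitor neurofibromin to the membrane), had the lowest adjusted p-values of the members in A minus C. Spred1 had 734, 1041 and 1362 reads in letter A, 1137, 1491 and 2055 in letter B and 1333, 1712 and 2252 in letter C. The 5 animal means of letter A lay below all 5 of letter B and all 5 of letter C, although single tumours overlapped. Spred1 fell by 0.59 in A minus B (SE 0.13, limma adjusted p = 0.0190) and by 0.78 in A minus C (SE 0.13, limma adjusted p = 0.000520). The A minus B call did not hold without animal A5 (limma adjusted p = 0.0527) or without animal B3 (limma adjusted p = 0.0508). Spred2 had 134, 232 and 299 reads in letter A, 219, 302 and 368 in letter B and 282, 381 and 459 in letter C. It fell by 0.75 in A minus C (SE 0.14, limma adjusted p = 0.000747), and animal means of letters A and C did not overlap. In A minus B it missed the threshold (-0.41, limma adjusted p = 0.0521), and passed it with the animal as a random block (limma adjusted p = 0.0230) and without animal A3, B2 or C3 (limma adjusted p = 0.0245, 0.0395 and 0.0474). Animal means did not overlap for 1 of 10 members in A minus B, where 6.84% of all genes were separated so. In A minus C they did not overlap for 3 of 10 (Dusp5, Spred1 and Spred2), against 26.4% of all genes, and in B minus C for 0 of 10, against 10.3%.

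The ETS factors differed from each other. Etv4 had 180, 249 and 355 reads in letter A, 208, 295 and 461 in letter B and 228, 325 and 465 in letter C, and it fell by 0.41 in A minus C (SE 0.14, limma adjusted p = 0.0263). The call was lost without animal A2, C1 or C4 (limma adjusted p = 0.0550, 0.0753 and 0.0528) and without the single tumour A11 (-0.31, limma adjusted p = 0.121). Etv5 was highest in letter B, with 2785, 4806 and 6622 reads in letter A, 4061, 6490 and 8737 in letter B and 3805, 5116 and 6482 in letter C. The ranges of all 3 letters overlapped and none of its differences passed: -0.40 in A minus B, -0.07 in A minus C and 0.33 in B minus C (limma adjusted p = 0.0691, 0.720 and 0.123). Etv5 in A minus B did pass with the animal as a random block and with tumour digit 1 alone (limma adjusted p = 0.0484 and 0.0231). It also passed without animal A3 or B5 (limma adjusted p = 0.0164 and 0.0336). Its 95% interval in A minus C ran between -0.38 and 0.24. Taking the 3 letters at once, 7 of 10 members differed among them (limma F test, adjusted p under 0.05), against 45.2% of all genes, the exceptions being Spry1, Etv4 and Etv5.

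**Figure D2:**
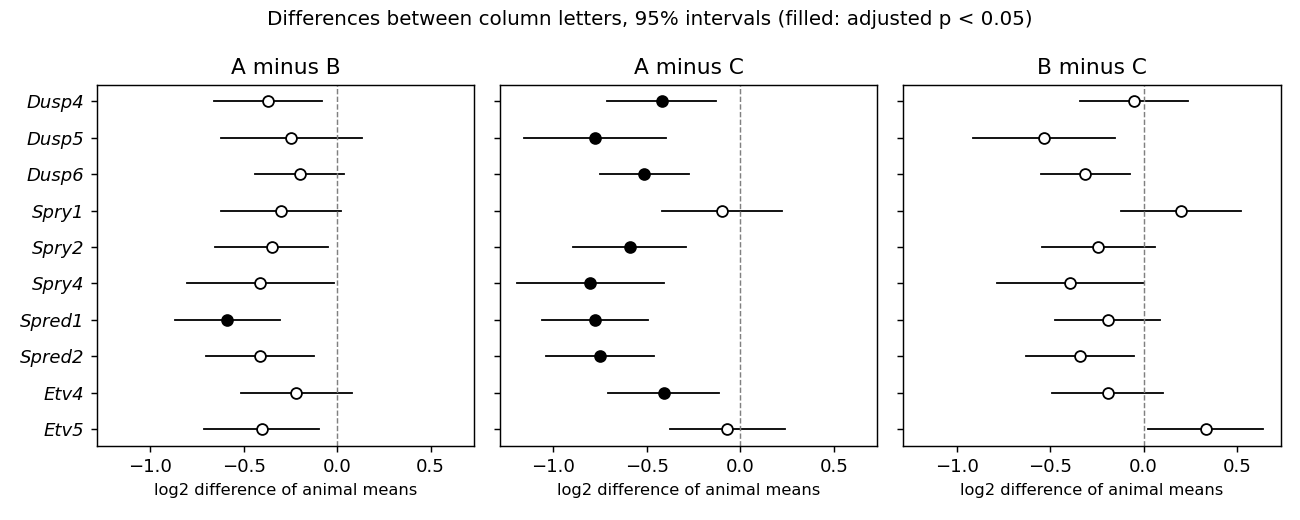
Log2 difference of animal means (x axis) for each gene (y axis) in A minus B, A minus C and B minus C, with 5 animals per letter. Points are limma estimates with 95% intervals, filled where the adjusted p is under 0.05, and the filled points are Spred1 in A minus B and 8 genes in A minus C.

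Some club, ciliated and alveolar type 2 markers also differed in A minus B and A minus C. Of 4 club cell markers, 2 were higher in A minus B (Scgb3a2 by 1.20 and Cyp2f2 by 1.27 on the log2 scale) and 3 in A minus C (Scgb1a1 by 1.34, Scgb3a2 by 0.91 and Cyp2f2 by 1.83), and 2 of 3 tested ciliated markers were higher in each. The summed club marker level ran between 1104500 and 3444100 in letter A, between 598360 and 2583000 in letter B and between 602280 and 1401400 in letter C. Of 8 alveolar type 2 markers, 4 were lower in A minus B and 6 in A minus C, among them Slc34a2, a phosphate transporter, by 0.67 and 0.59, and the summed level ran between 1287000 and 2507800 in letter A, between 1791300 and 2975300 in letter B and between 2443600 and 2960300 in letter C. Most of the alveolar type 2 sum came from Sftpc and most of the club sum from Scgb1a1. Sftpc did not pass in A minus B or A minus C (limma adjusted p = 0.292 and 0.144). Scgb1a1 did not pass in A minus B (limma adjusted p = 0.0738). None of the listed markers was at 0 in any tumour. Of all genes tested, 8.78% were higher and 6.49% lower in A minus B, and 22.9% higher and 21.9% lower in A minus C. Endothelial markers were higher in A minus B for 1 of 6 and in A minus C for 4 of 6, leukocyte markers divided in A minus C (4 of 10 higher and 4 lower), and alveolar type 1 markers did too (2 of 6 higher and 1 lower). In A minus B, 0 of 6 alveolar type 1 markers were called. Of 6 proliferation and 5 fibroblast markers, 0 passed limma's test in any comparison, and 1 of each had an unadjusted limma p under 0.05, in A minus B. In B minus C, Csf1r, a macrophage receptor, was the 1 listed marker that passed (-0.31).

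Over the 30 tumours all 10 members had a positive correlation with the alveolar type 2 markers and a negative one with the club, ciliated, endothelial, leukocyte and fibroblast markers. With the alveolar type 1 markers 9 of 10 were negative (Etv5 at 0.09), and with the proliferation markers only 1 was (Dusp4 at -0.11). The share of all genes with these signs was not computed. As a description, since tumours of 1 animal and genes of 1 library share their source, the correlation with the mean alveolar type 2 level lay between 0.57 for Dusp5 and 0.90 for Spred1. That with the mean club level lay between -0.25 for Dusp5 and -0.82 for Spred1, and that with the mean endothelial level between -0.14 for Etv5 and -0.75 for Dusp4. The endothelial correlation was the stronger of these for Dusp4 (-0.75 against -0.45 for club) and Dusp5 (-0.63 against -0.25), and close to that with club for Spred2 (-0.65 against -0.63) and Etv4 (-0.52 against -0.51). With each letter's mean removed, the alveolar type 2 correlation lay between 0.42 for Dusp5 and 0.89 for Etv5. The club correlation then lay between -0.75 for Spry4 and 0.06 for Dusp5, with -0.15 for Dusp4, and the endothelial one between -0.63 for Dusp4 and 0.01 for Spry4. In a fit that carries the club marker level as a covariate, chosen after seeing the data, 3 of 10 members kept their call in A minus C (Dusp5, Spred1 and Spred2) and 0 in A minus B (0 also at an unadjusted limma p under 0.05), and 2 members gained one in B minus C: Dusp6 (-0.34, limma adjusted p = 0.00931) and Spry4 (-0.44, limma adjusted p = 0.0245). Of all genes tested, that fit called 0 in A minus B, 11.7% in A minus C and 21.6% in B minus C (3140 genes, against 2468 without the covariate), so the members' counts moved the way those of the whole table did. The sizes of the lost A minus C differences moved unequally: Dusp4 was -0.41 with the covariate against -0.42 without, Dusp6 -0.23 against -0.51, Spry2 -0.30 against -0.59, Spry4 -0.33 against -0.80 and Etv4 -0.32 against -0.41. In that fit the A minus B differences of Dusp6 and Spry4 had the opposite sign, at 0.11 each. Some club markers were themselves higher in letter A than in letters B and C, so this fit cannot separate letter from club level. A call could also be lost with its size nearly kept, as for Dusp4 in A minus C. The part that cell content plays in the letter differences was therefore not tested.

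**Figure D3:**
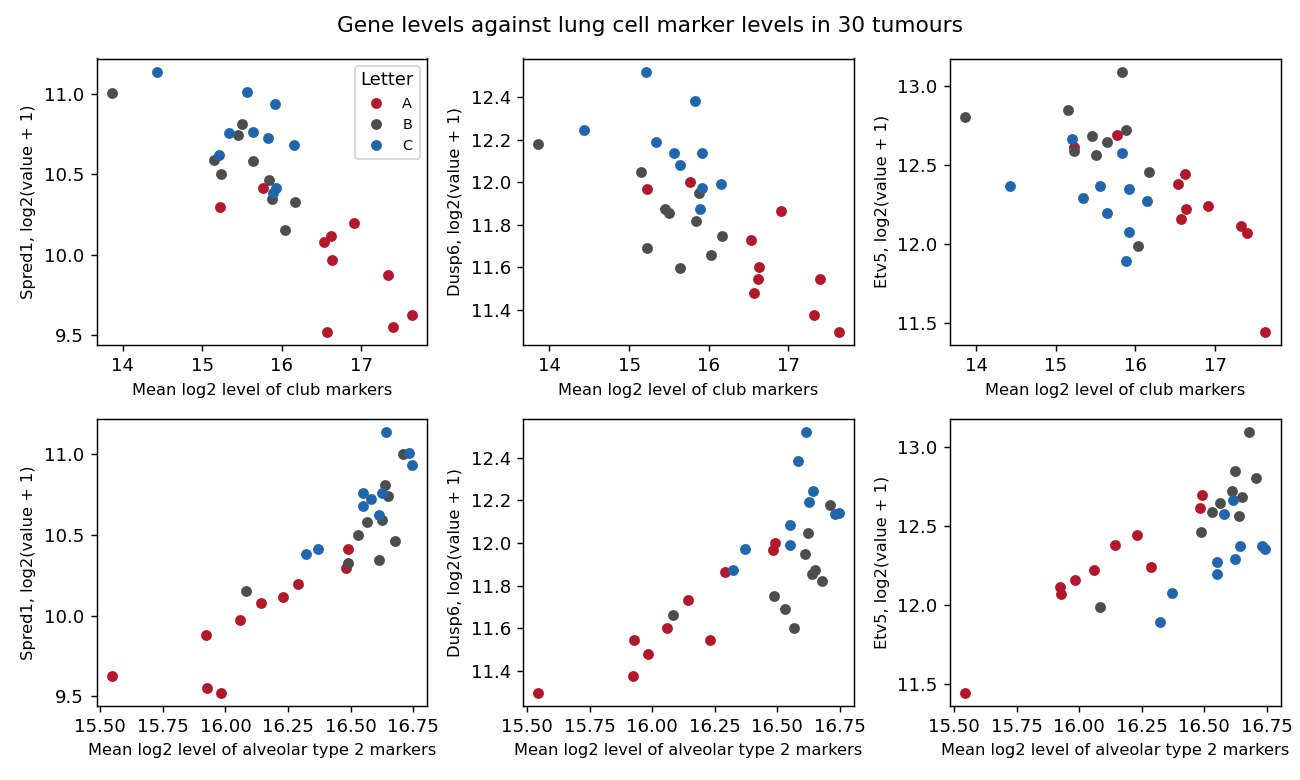
Log2(normalized read count + 1) of Spred1, Dusp6 and Etv5 (y axes) against the mean log2 level of 4 club markers (upper row) or 8 alveolar type 2 markers (lower row), 1 point per tumour, coloured by letter. The letter A tumours reach the highest club levels and the lowest alveolar type 2 levels, and A11 lies at the end of both axes.

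Animals of 1 letter also differed among themselves. The test of animal within letter, which sets the gap between animals against that between their sister tumours, called 5 of 10 members (limma adjusted p under 0.05) against 26.7% of all genes: Dusp6, Spry1, Spry2, Spry4 and Spred2. With tumour A11 left out, it called 8, against 28.2% of all genes. Without animal A1 as a whole it also called 8, where leaving out 1 animal at a time gave 2650 to 4486 of all genes. It called 3 without animal A3 (20.8% of all genes) and 2 without animal C3 (20.7% of all genes). Animal C3 was the lowest of its letter for 10 of 10 members, and animal A3 the highest of its letter for 8 of 10. Spry1 held the largest share of spread between animals, 65.1% of its sum of squares, with 18.0% between letters and 16.8% between sister tumours. For Spred1 and Spred2 the letters held most, with 62.3% and 62.0%, against a median of 30.4% over all genes. Sister tumours took the smallest share for Spry2 (9.80%) and the largest for Dusp5 (39.1%), with a median over all genes of 23.7%. The correlation between sister tumours once letters were taken out was highest for Spry2 (0.68), Spry1 (0.66) and Dusp6 (0.61) and below 0 for Dusp5 (-0.18).

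**Figure D4:**
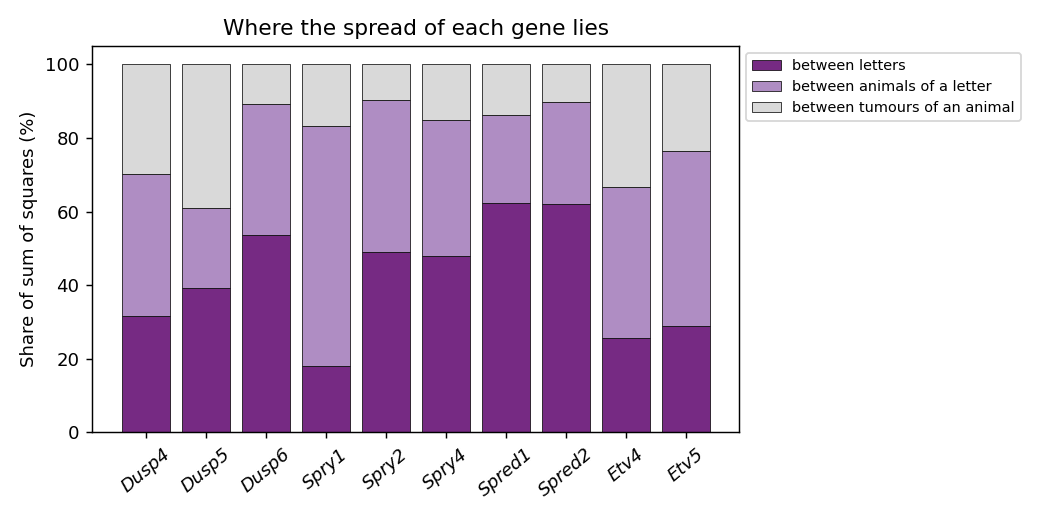
Share of the sum of squares of log2(normalized read count + 1) (y axis, percent) that lay between letters, between the 5 animals of a letter and between the 2 tumours of an animal, for each gene (x axis). Spred1 and Spred2 have the largest share between letters and Spry1 the largest between animals.

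Between the sister tumours of an animal, all 10 members differed in the same direction in 4 of 15 animals, 3 of letter A, 0 of letter B and 1 of letter C. In the other 11 animals members went both ways, with 5 up and 5 down in animal B1. No share for other gene sets was computed. All 10 were higher in tumour 0 than in tumour 1 in animals A1 (median log2 difference 0.59), A5 (0.29) and C1 (0.25), and all 10 were lower in tumour 0 in animal A4 (-0.25). The median absolute difference between sisters over all genes was 0.23 in A1, 0.16 in A5, 0.13 in C1 and 0.13 in A4, and it was smaller than that of the members in 11 of 15 animals. Tumour A11, which stood apart from the rest, is the lower of the A1 pair.

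Across the 15 animals the members varied together. All 45 pairs of members had a positive correlation of animal means, with a median Pearson r of 0.67, and 32 of 45 had an adjusted p under 0.05 (permutation test, 100000 resamples, two-sided, Benjamini-Hochberg over 45 pairs), or 34 of 45 by Spearman's rho. The highest was that of Dusp6 and Spry4, with r = 0.96 and rho = 0.94 (n = 15, permutation p = 1e-05, the smallest the resamples can give, adjusted p = 0.00011), and 0.96 again without the 2 animals farthest from the median of Dusp6. No other of the 14538 genes had a higher r with Dusp6, nor with Spry4. Spry2 joined both, with r = 0.94 to Spry4 and 0.89 to Dusp6, and Spred1 and Spred2 had r = 0.91 with each other (permutation adjusted p = 0.00011 for Spred1 and Spred2). The pair with Spry1 and Etv5 stood somewhat apart from this block in animal means with letters left in: they had r = 0.78 and rho = 0.73 with each other (permutation adjusted p = 0.0022 and 0.0060), 0.67 without animals B1 and C5, but 0.47 and 0.42 with Dusp6. With letter means removed, Etv5 had r = 0.92 with Spry4 and 0.82 with Dusp6, against 0.71 with Spry1, 0.54 with Spred1 and 0.50 with Spred2. Spry1 then had 0.81 with Spry2 and 0.71 with Dusp6, but 0.38 with Spred1 and 0.56 with Spred2. Over animal means with letters left in, Dusp5 and Etv5 had the lowest r, 0.06, which did not pass (permutation adjusted p = 0.83). The permutations moved animals across letters, so all these p-values also take in the differences between letters. Dusp5 and Dusp6 passed (r = 0.65, permutation adjusted p = 0.016), though their r was 0.08 with letter means removed, while that of Dusp6 and Spry4 was 0.93. No permutation within letters was run.

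The pairs were also correlated with letters and animals taken out. With the mean of each letter removed, the median r was 0.57 and all 45 pairs were positive, between 0.08 for Dusp5 and Dusp6 and 0.93 for Dusp6 and Spry4. Over differences between sister tumours, in which letter and animal cancel, the median r was 0.61 and all 45 pairs were positive (0.49 without animal A1, with 44 of 45 positive). The highest of these was 0.93 for Dusp6 and Spry1 (0.87 without animal A1). With the club marker level regressed out, the median was 0.59 and 41 of 45 were positive, the lowest being Spred1 and Etv5 at -0.25. Strong correlations were common in this table. Over animal means with letters left in, between 11.2% (Spry1) and 25.7% (Spred1) of all genes had an r over 0.5 with a given member. Among the members themselves, 35 of 45 pairs had one. No such share of all genes was computed with letter means removed, over sister differences or with the club level regressed out.

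**Figure D5:**
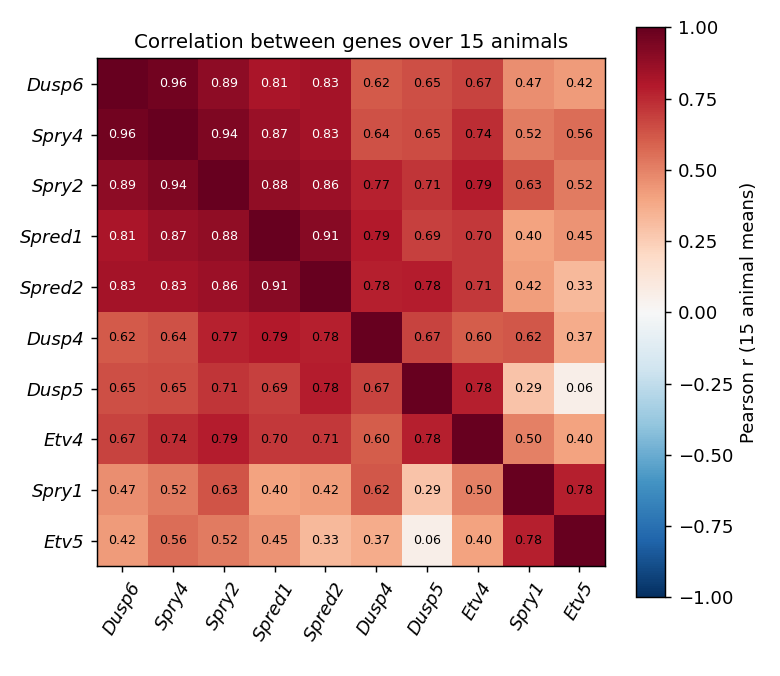
Pearson r between animal means of log2(normalized read count + 1) for each pair of the 10 genes (both axes), over 15 animals. Dusp6, Spry4, Spry2, Spred1 and Spred2 form a block with r of 0.81 or more, while Spry1 and Etv5 have their highest r with each other.

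The genes closest to each member over the 30 tumours were mostly not members. Dusp6 lay nearest to Spry4 (r = 0.94), Apc (0.91) and Arl4c (0.91), and Spry4 to Dusp6 (0.94), Sh3d19 (0.92) and Rnf19a (0.91). Spred1 lay nearest to Pip5k1b, Gnptab and Adcy7 (0.95 each), Spred2 to Slco4c1 (0.93), Rps6ka3 (0.92) and Acly (0.91), and Spry2 to Camsap3 (0.92), Thsd4 (0.92) and Pde7b (0.91). Rps6ka3 encodes the ERK-activated kinase RSK2. Spry1 ran with Trpv6 (0.90), Zbtb42 (0.88) and Src (0.87), Etv5 with Slc44a2 (0.91), Mmp11 (0.91) and Arhgef2 (0.89), and Etv4 with Celf4 (0.89), Aif1l (0.87) and Ppap2c (0.86). The weakest sets were those of Dusp4, with Map2k4, Adrbk2 and Bmp2 (0.82 each), and of Dusp5, whose nearest gene was Zdhhc9 (0.86). These values are descriptions over tumours that share animals.

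Promoters are shown for Dusp6 and Spry2, whose animal means were among the most closely correlated, because a search for CIC octamers marked letters in these 2. RefSeq gives a promoter for 7 of the 10 members, with 2 for Etv5 (build GRCm38.p6). The submitters' processing notes name mm9, so these coordinates are not those of the deposited counts. Capitals mark a match to TGAATGAA, TGAATGGA, TCAATGAA or TCAATGGA on either strand, the spellings that begin with TC having been added after the sequences were seen. The stretches run 250 bases before to 30 after the start site.
Dusp6, chr10:99262981-99263260, plus strand: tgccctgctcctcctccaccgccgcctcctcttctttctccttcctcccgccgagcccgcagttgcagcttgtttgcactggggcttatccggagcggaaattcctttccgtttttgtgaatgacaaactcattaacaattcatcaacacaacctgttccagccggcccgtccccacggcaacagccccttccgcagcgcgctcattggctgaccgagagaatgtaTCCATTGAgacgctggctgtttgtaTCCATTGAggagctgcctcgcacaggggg
Spry2, chr14:105896790-105897069, minus strand: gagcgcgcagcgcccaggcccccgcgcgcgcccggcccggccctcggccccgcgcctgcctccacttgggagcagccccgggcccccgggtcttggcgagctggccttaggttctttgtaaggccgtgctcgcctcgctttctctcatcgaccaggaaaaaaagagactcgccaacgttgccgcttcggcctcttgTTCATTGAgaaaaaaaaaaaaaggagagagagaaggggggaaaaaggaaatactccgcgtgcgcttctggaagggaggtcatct

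All 3 matches, 2 in Dusp6 and 1 in Spry2, are to the added spellings TCAATGAA and TCAATGGA, so the count of 2 of 8 member windows of 300 bases follows from a pattern widened on these promoters and is given as a description, beside 1.41% of 32851 promoters of that length. The first spellings TGAATGAA and TGAATGGA were in 0 of 8, and in 2.47% of all promoters. The ETS letters CCGGAAG (8.86% of all promoters), the AP-1 letters TGACTCA and TGAGTCA (5.2%) and the CRE letters TGACGTCA (1.79%) were in 0 of 8. Searches ran on both strands, and no 2 matches overlapped. A match is a run of letters and no evidence of binding, and the absence of one says only that these letters are not in the window.

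Other genes under ERK control, from a list that excluded the members, moved both ways. Of 19 tested, 2 were higher and 6 lower in A minus C, 1 higher and 3 lower in A minus B, and 2 higher and 5 lower in B minus C (limma adjusted p under 0.05), with median log2 differences of -0.30, -0.21 and -0.11. Of all genes tested, 22.9% were higher and 21.9% lower in A minus C, 8.78% and 6.49% in A minus B, and 8.26% and 8.71% in B minus C. Dusp16, a phosphatase of the JNK and p38 kinases, fell in all 3, by 0.35 in A minus B, 0.72 in A minus C and 0.38 in B minus C. Phlda1, Myc, a growth transcription factor, Plaur, which encodes the urokinase receptor, and Dusp8 fell in A minus C (by 0.90, 0.74, 0.84 and 0.75) and in B minus C (by 0.63, 0.51, 0.55 and 0.54). Epha2, an ephrin receptor, fell by 0.32 in A minus B and 0.57 in A minus C. Ier3, an immediate early response gene, went the other way, higher by 0.32 in A minus B, 0.69 in A minus C and 0.37 in B minus C. Dusp2 was higher by 0.80 in A minus C, and Spred3 was lower by 0.80 in A minus B and higher by 0.86 in B minus C. Spred3 had few reads, with mean log2 levels of 4.84 in letter A, 5.64 in letter B and 4.78 in letter C.

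Upstream of ERK, 27 genes of the cascade were tested, and 8 were lower and 2 higher in A minus C, beside 21.9% and 22.9% of all genes. Map2k1, which encodes MEK1, fell in all 3 comparisons, by 0.26 in A minus B, 0.50 in A minus C and 0.24 in B minus C. Shc1, an adaptor, fell by 0.41 in A minus B and 0.29 in A minus C. Map2k2, Sos1 and Sos2 fell by 0.25, 0.40 and 0.22 in A minus C, Map2k2 also by 0.16 in B minus C, and Braf by 0.25 in A minus B. Genes that rose were the receptors Fgfr1 (by 0.52 in A minus B and 0.69 in A minus C) and Fgfr3 (by 0.40 in A minus C), and the adaptor Gab1 (by 0.27 in B minus C). In A minus B the counts were 1 higher and 4 lower, beside 8.78% and 6.49% of all genes. In B minus C they were 1 higher and 2 lower, beside 8.26% and 8.71%. The median difference of the cascade genes was -0.09 in A minus B, -0.11 in A minus C and -0.03 in B minus C.

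Among 14 ERK substrates and other ETS factors, 2 were higher and 3 lower in A minus C, 1 and 1 in A minus B, and 1 and 2 in B minus C. The shares of all genes were 22.9% and 21.9%, 8.78% and 6.49%, and 8.26% and 8.71% in the same order. Rps6ka3 fell by 0.74 in A minus C and 0.43 in B minus C, while Rps6ka1, which encodes RSK1, was higher by 0.22 and 0.23. Elf3, an epithelial ETS factor, fell by 0.38 in both, and Elf5 by 0.30 in A minus C. Ets1 was higher by 0.30 in A minus C, Spdef, an ETS factor of secretory epithelium, by 0.52 in A minus B, and Atxn1, which encodes a partner of CIC, fell by 0.30 in A minus B. The medians of the list were -0.08 in A minus B, -0.06 in A minus C and 0.06 in B minus C.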

How the data were processed

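Libraries came from a TruSeq kit, per the labels' protocols. TopHat 1.3.3, HTSeq, DESeq 1.14.0 and mm9 stand in the submitters' processing notes. The authors deposited 1 table of read counts divided by a size factor per library, a signal (normalized read count) in which 100% of values came out as whole reads within 0.01. No column name matches a single sample label, so columns were grouped by letter and animal digit. Members, lists and tests were chosen with earlier results of these data known. Genes with a mean of at least 10 were kept, log2(value + 1) was averaged over the 2 tumours of an animal, and limma 3.58.1 (R 4.3.3) compared the letters, with Benjamini-Hochberg adjustment over 14539 genes. A nested limma fit on the 30 tumours tested animal within letter. edgeR 4.0.16 was run on the recovered reads and called 2323, 6472 and 2455 genes in A minus B, A minus C and B minus C. Permutation tests used numpy 2.4.6, with ranks from scipy 1.17.1. Fold changes are on the log2(value + 1) scale, which understates changes of low genes. Nothing in the sources says that the animals of a letter came from separate litters or days. The p-values of the main letter comparisons are set against the spread between these animals. Those of animal within letter are set against the spread between sister tumours. The named genes were all members, the 3 nearest genes of each and every list gene past the threshold, apart from some that are not reported here. Alternatives covered the pseudocount, filter, scaling, tumour digit, blocks and leaving out animals. The scripts were tested on simulated data.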

Additional observations from a re-analysis of the deposited data

Results flagged for a closer look

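In 5 of 60 groups tested (the tumours and the animal means of each member in each letter), the lowest or highest value lay far from the rest, and chance flags about 1 in 20 groups. All values are log2(normalized read count + 1). In letter A, tumour A20 was the lowest for Dusp4 at 7.35, the next tumour being at 7.86, and for Spred2 at 7.08, the next being at 7.64. Tumour A11 was the lowest of letter A for Etv5 at 11.44, the next being at 12.07. Animal A3 had the highest animal mean of letter A for Spry4 at 8.82, the next being at 8.12. Animal C3 had the lowest animal mean of letter C for Spry2 at 10.40, the next being at 11.03.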

How the results depend on the processing

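Each result was recomputed under the other settings, and of the members' results 781 kept direction and call, 27 gained a call, 19 lost one and 10 changed sign. Leaving out 1 animal at a time gave 292 to 3434 genes and 0 to 5 members in A minus B, 5525 to 6709 genes and 6 to 8 members in A minus C, and 1506 to 2870 genes and 0 to 3 members in B minus C. It gave 5358 to 6987 genes for any letter, 2650 to 4486 genes and 2 to 8 members for animal within letter, and a median pair correlation of 0.62 to 0.74. The low of A minus B came without A5 and its high without A3, and the low of 2 members for animal within letter without C3. The animal digits were not treated as pairing animals in the main fit. The median correlation of deviations was -0.04 for the 15 pairs sharing a digit and -0.01 for pairs of other digits. Of the 15 pairs, 4 had one over 0.1, the highest being 0.51 for A3 and B3. These values cannot show whether the digits carry a pairing. A replicate block on the digit called 2 members in A minus B (13.45% of all genes) and 1 in B minus C (14.97%), adding Spred2 in both. With the animal as a random block over 30 tumours, 4 members were called in A minus B (19.6% of all genes) and 1 in B minus C, Dusp6 (21.2%). The single tumours of an animal were compared by the digits of the names, 0 and 1. Digit 0 alone gave 0 genes in A minus B by limma (2428 at an unadjusted p under 0.05), 5 members in A minus C (30.2% of all genes), 1056 genes in B minus C and 3034 for any letter, and digit 1 alone 4 members and 2837 genes (19.5%) in A minus B. With the club covariate, chosen after seeing the data, limma called 0 genes in A minus B (870 at an unadjusted p under 0.05), 1699 in A minus C, 3140 in B minus C and 2948 for any letter, and 3 members in A minus C and 2 in B minus C. Without tumour A11, also chosen later, animal within letter called 8 members (28.2% of all genes). Removing letter means gave a median pair correlation of 0.57. The sign changes were in differences that had not passed the test. Dusp4 in B minus C was 0.0554 with digit 1 alone and ranged from -0.143 to 0.0853 over animals left out. Etv5 in A minus C was 0.0104 without A11, 0.238 with the club covariate and -0.173 to 0.0299 over animals left out, and Spry1 in A minus C was 0.0168 with the covariate and -0.215 to 0.00958 over animals left out. Dusp6 and Spry4 in A minus B were 0.11 with the covariate. The correlation of Dusp5 and Etv5 was -0.0091 after scaling to the 75th percentile, -0.0207 without A11, -0.204 with the club level regressed out and -0.0600 to 0.195 over animals left out. That scaling moved the share of lower calls to 33.6% of those in A minus B, 38.7% in A minus C and 40.6% in B minus C, against 42.5%, 48.9% and 51.3%. The cause of these shifts was not tested.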
